A study of Mus musculus with 6 samples.

Results

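The genes described here are the 2 folate receptor genes, Folr1 and Folr2, and the 2 genes of membrane folate transporters, Slc19a1 and Slc46a1, in embryonic mouse kidney. The platform annotation gave these 4 genes 7 probe sets of their own among 45101 on the array, and no probe set that it shared between them and another gene. All 7 passed a filter on low signal. The genes were selected on the difference between Fz4-/- and Fz4+/+ kidneys in these same arrays, because Folr1 and Folr2 lie on the chromosome of Fzd4 and differed in opposite directions. Their differences between the genotypes are therefore given as a description, with no test.

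Folate is the vitamin that carries single-carbon units for the synthesis of purines, thymidylate and methionine, and dividing embryonic tissue depends on its supply. It enters cells by 2 kinds of route. Folate receptors bind it with high affinity at the cell surface, through a lipid anchor, and are taken up with it by endocytosis, whereas the transporters carry it directly across membranes. Folr1 encodes folate receptor alpha, which is found on epithelia such as the proximal tubule of the kidney and is needed for closure of the neural tube in the mouse. Folr2 encodes folate receptor beta, which is known from macrophages. Slc19a1 encodes the reduced folate carrier, an anion exchanger present in most tissues, and Slc46a1 encodes the proton-coupled folate transporter, which absorbs folate in the gut and works at acidic pH.

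Kidneys were dissected whole at E13.5, a stage at which the ureteric bud is branching within the mesenchyme that forms nephrons. There were 3 Fz4-/- samples and 3 Fz4+/+ samples, and each of 3 litters gave 1 of each genotype. The labels give neither the strain, nor the structure of the Fz4 allele, nor whether a sample pooled several embryos, so that the spread between samples may be partly technical. RNA was hybridised to Affymetrix MOE430.2 arrays, and all values are log2 signals after RMA, which summarises each set of short probes into 1 value.

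The arrays had median log2 signals of 6.62 to 6.74. Fzd4, the gene of the Fz4 receptor, gave 3.58 to 6.22 in Fz4-/- samples and 10.31 to 11.21 in Fz4+/+ samples on its brightest probe set. Of 12 kidney marker genes 11 had a probe set of their own and all 11 passed the filter. Across 27022 tested probe sets limma called 0 between the genotypes at an adjusted p of 0.05, or 0%, and 239 had an unadjusted p under 0.05. The lowest adjusted p was 0.999988. Fzd4 itself, at -6.16 and -3.44 on its tested probe sets, was not called. An adjusted p near this value therefore does not show that a gene was unchanged. A fit with array weights called 2 probe sets, both of Fzd4. The median difference over all tested probe sets, Fz4-/- minus Fz4+/+, was 0.03. In whole kidneys, fewer cells of a type and less RNA per cell cannot be told apart.

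The epithelial receptor gene Folr1 was measured by 1 probe set and had the widest gap between the genotypes of the 4 genes. It read 7.02, 7.10 and 7.24 in the Fz4-/- samples of litters 1, 2 and 3, against 6.59, 5.88 and 6.61 in the Fz4+/+ samples. Every Fz4-/- sample lay above every Fz4+/+ sample, by at least 0.41. The means were 7.12 ± 0.11 in Fz4-/- and 6.36 ± 0.42 in Fz4+/+ (SD, n = 3 each), a difference of 0.76 ± 0.22 (SE), or 1.69-fold on the RMA scale. Within litters 1, 2 and 3 the difference was 0.42, 1.22 and 0.63. The Fz4+/+ sample of litter 2 stood lowest, just under the filter threshold of 5.89, and without it the difference was 0.51.

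The macrophage receptor gene Folr2 went the other way, by less. Its single probe set read 6.27, 6.19 and 6.17 in the Fz4-/- samples of litters 1, 2 and 3, against 6.49, 6.29 and 6.56 in the Fz4+/+ samples. The genotypes did not overlap, but only 0.02 separated the highest Fz4-/- sample from the lowest Fz4+/+ sample. The means were 6.21 ± 0.05 in Fz4-/- and 6.45 ± 0.14 in Fz4+/+ (SD, n = 3 each), a difference of -0.24 ± 0.11 (SE), or 0.849-fold. The difference was -0.22, -0.11 and -0.39 within litters 1, 2 and 3. Its mean signal over the 6 arrays lay 0.44 above the filter threshold, nearer to it than that of any other member, while that of Folr1 lay 0.84 above it.

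Slc46a1, whose product can release folate from acidified endosomes after receptor uptake, was higher in Fz4-/- kidneys within each litter on both of its probe sets. The first, 1426714_at, read 8.39, 8.76 and 8.69 in the Fz4-/- samples of litters 1, 2 and 3 and 8.20, 8.00 and 8.40 in the Fz4+/+ samples. The second, 1426715_s_at, read 8.76, 9.05 and 9.01 in Fz4-/- and 8.47, 8.39 and 8.80 in Fz4+/+. On both, the Fz4-/- sample of litter 1 lay just below the Fz4+/+ sample of litter 3, by 0.02 and 0.05, so that the genotypes overlapped. The differences were 0.41 ± 0.16 and 0.38 ± 0.15 (SE). Within litters 1, 2 and 3 they were 0.18, 0.76 and 0.29 on the first and 0.28, 0.65 and 0.20 on the second. With litter 2 left out, an alternative added once the values were known, they were 0.24 on each.

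Slc19a1, the gene of the carrier present in most cells, differed least in proportion to its spread. Its 3 probe sets read 9.45 to 9.52 (1420138_at), 8.37 to 8.41 (1448132_at) and 9.13 to 9.17 (1449744_at) in Fz4-/- samples. In Fz4+/+ samples they read 9.10 to 9.44, 7.97 to 8.50 and 8.83 to 9.23. The first did not overlap between the genotypes, with a gap of 0.02, whereas the other two overlapped. The differences were 0.16 ± 0.13, 0.19 ± 0.16 and 0.13 ± 0.13 (SE). In litter 3 the first probe set differed by 0.06 and the others by -0.10 and -0.05, so only the first kept its direction in all 3 litters. Without the Fz4+/+ sample of litter 2 the differences were 0.05, 0.07 and 0.04. Without that of litter 3 they were 0.22, 0.33 and 0.24.

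**Figure D1:**
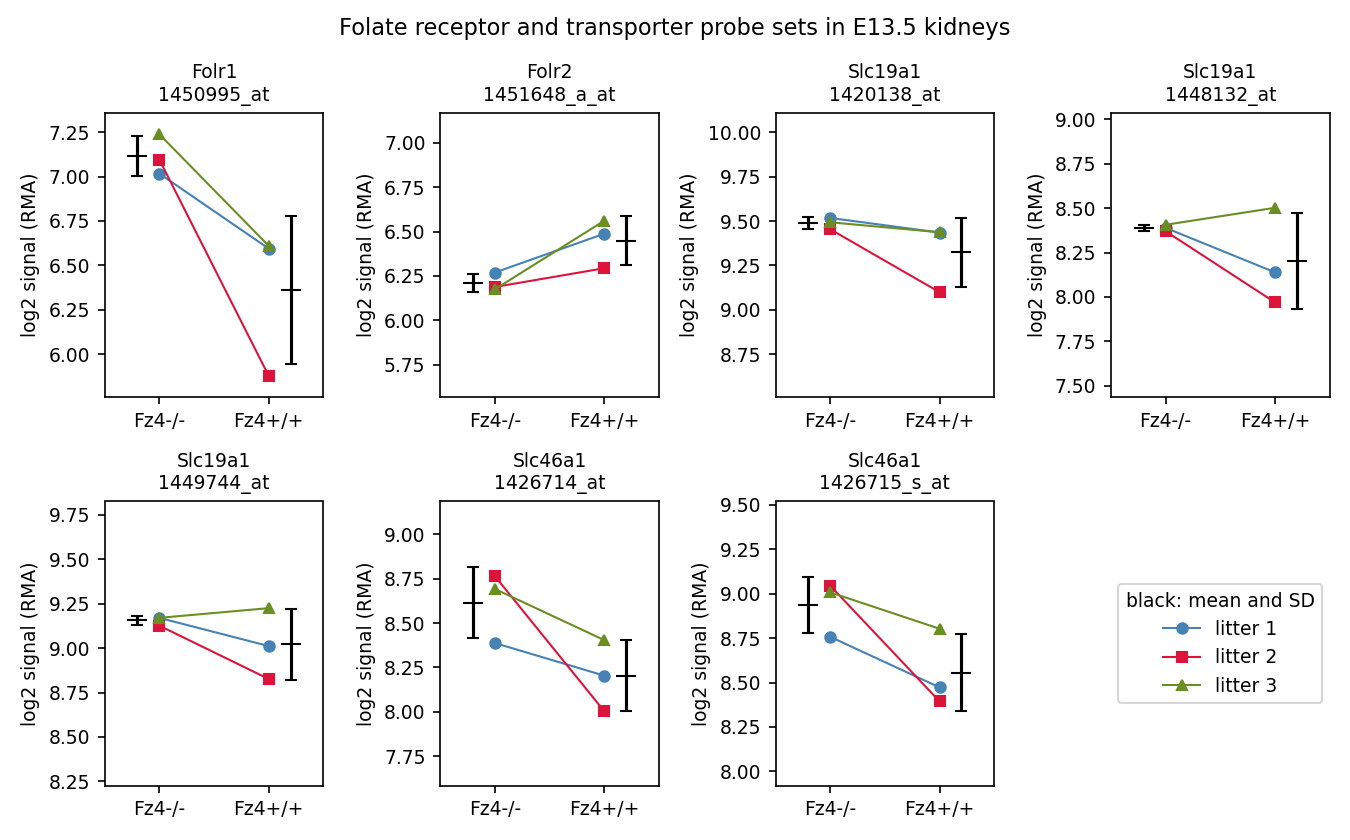
Log2 signal (RMA) of each probe set of Folr1, Folr2, Slc19a1 and Slc46a1 in the 3 Fz4-/- and 3 Fz4+/+ samples, with lines joining the samples of a litter and black bars for the mean and SD (n = 3). All axes span the same log2 range. Folr1 is separated by 0.41 between the genotypes, Folr2 runs the other way with a gap of 0.02, and the Fz4+/+ sample of litter 2 is the lowest of its genotype in every panel.

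Over the 7 probe sets, 2 were higher in Fz4-/- without overlap and 1 was lower without overlap. Of all tested probe sets 2.42% were higher without overlap and 1.21% lower. After quantile normalization of the deposited values the counts were 3 higher and 1 lower, against 2.45% and 1.89% of all tested probe sets. The sets that were higher then were Folr1 and both of Slc46a1, and the first Slc19a1 set overlapped. Of the 7, 4 were higher in all 3 litters and 1 was lower in all 3, against 14.2% and 7.28% of all tested probe sets. Nothing is read from these counts, because the genes were picked on this contrast.

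Most of these differences were largest in litter 2. It gave the largest of the 3 litter differences for 6 of the 7 probe sets, all but that of Folr2. These 7 stand for only 4 genes, and the share over all tested probe sets was not computed. The median difference over all tested probe sets was 0.03, and -0.002 without litter 2, an alternative added once the values were known. The Fz4+/+ sample of that litter was the lowest of its genotype on 7 of 7, an observation made after the values were seen. The same sample was lowest of its genotype on 46.6% of all tested probe sets. The Fz4-/- samples agreed more closely than the Fz4+/+ samples: the SD was larger in Fz4+/+ on 6 of 7 probe sets, and over 2 times as large on 5. Over all tested probe sets it was larger in Fz4+/+ on 69.6% and over 2 times as large on 27.4%. The exception was 1426714_at of Slc46a1, at 0.20 in both.

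**Figure D2:**
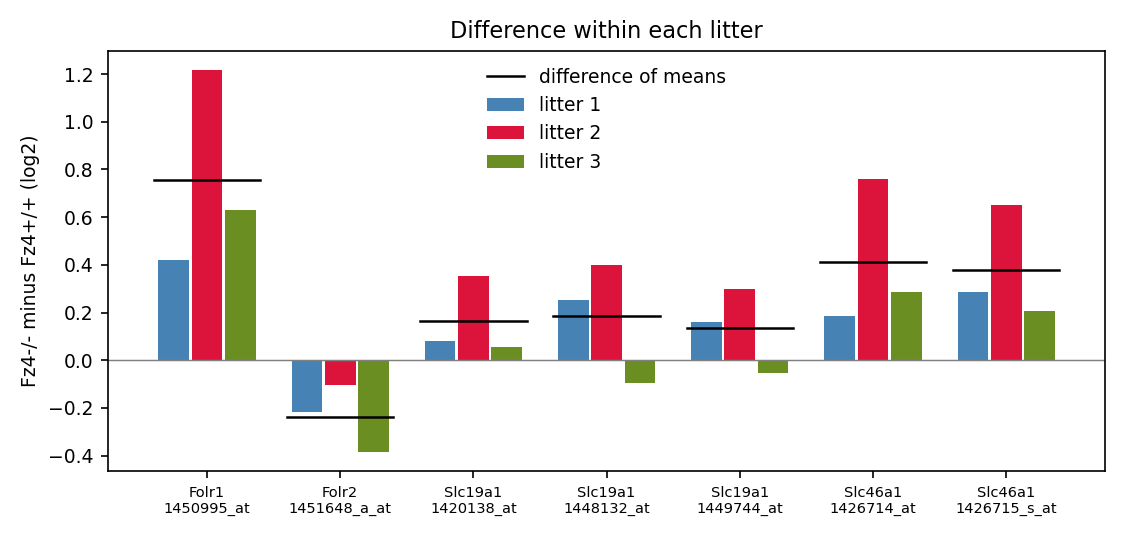
Difference in log2 signal, Fz4-/- minus Fz4+/+, within litters 1, 2 and 3 (bars) for each probe set, with the difference of the genotype means as a black line. Litter 2 gives the tallest bar for every probe set but that of Folr2, up to 1.22 for Folr1, and 2 of the 3 Slc19a1 probe sets turn negative in litter 3.

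Enzymes that use folate inside the cell were taken from a list of 35 genes, of which 31 had a probe set of their own and 28 passed the filter. limma called 0 of the 28, and 0 had an unadjusted p under 0.05. Of these 21 were above 0 and 7 below, against 63.5% of 12535 measured genes above 0. Their median difference was 0.05, against 0.03 over all measured genes, and became 0.02 and 0.11 with the Fz4+/+ samples of litters 2 and 3 left out in turn. Only Sardh, a mitochondrial enzyme that hands single-carbon units from sarcosine to folate, was higher without overlap, at 0.20 ± 0.12 (SE), and 0 were lower without overlap. Of all measured genes 2.56% were higher without overlap and 1.25% lower. In all 3 litters 4 of the 28 were higher and 3 lower, against 15.5% and 7.26% of measured genes.

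The methionine synthase gene Mtr, whose enzyme takes the methyl group of folate, read 7.66, 7.49 and 7.51 in Fz4-/- samples and 7.19, 6.88 and 7.59 in Fz4+/+ samples. Its difference was 0.33 ± 0.19 (SE), with litter 3 the other way. Mthfd1, which interconverts forms of folate in the cytosol, differed by 0.14 ± 0.11, and Gldc, of the glycine cleavage system, by 0.22 ± 0.17. All 3 genes, and Sardh, had an adjusted p of 0.999988 in limma, and 1 of 2 other tested probe sets of Mthfd1 had the opposite sign.

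Shmt1, the cytosolic enzyme that moves a single-carbon unit from serine to folate, had the lowest difference of the list. It read 10.36, 8.86 and 9.56 in Fz4-/- samples and 10.24, 10.24 and 10.25 in Fz4+/+ samples, so that all the spread lay in Fz4-/- and the genotypes overlapped. Its difference was -0.65 ± 0.36 (SE), at limma's adjusted p of 0.999988, and 2 of its 3 other tested probe sets differed in the opposite direction. Mthfd2l, a mitochondrial enzyme of the same pathway, Mat2b, a regulator of the synthesis of S-adenosylmethionine, and Atic, of purine synthesis, differed by -0.18, -0.08 and -0.07. Each of these 3 was lower in all 3 litters, at the same adjusted p, but the 1 other tested probe set of Atic had the opposite sign.

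Other genes that move folate, or vitamin B12, which methionine synthase needs, formed a list of 20. All 20 had a probe set of their own and 14 passed the filter. With genotype as the sole term, limma called 0 of 14 and 0 had an unadjusted p under 0.05. Of the 14, 0 were without overlap. The list had 10 genes above 0 and 4 below, against 63.5% of measured genes above 0, and a median difference of 0.09. In all 3 litters 5 of the 14 were higher and 0 lower, against 15.5% and 7.26% of measured genes. This median was -0.02 when the Fz4+/+ sample of litter 2 was left out and 0.17 when that of litter 3 was. It was 0.13 when the Fz4-/- sample of litter 1 was left out and 0.02 when that of litter 3 was. The Fz4+/+ sample of litter 2 was the lowest of its genotype for 10 of these 14 genes and for 18 of the 28 enzymes, against 48.6% of measured genes.

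Lrp2, the endocytic receptor megalin, which takes up filtered folate bound to its binding protein, had the largest difference of that list. It read 6.97, 6.55 and 6.84 in Fz4-/- samples and 6.07, 5.19 and 6.57 in Fz4+/+ samples, a difference of 0.84 ± 0.35 (SE) at limma's adjusted p of 0.999988. Its unadjusted limma p was 0.054, and 0.018 with the litter as a block, a fit that called 0 probe sets. As with Folr1, the Fz4+/+ sample of litter 2 stood lowest, but here the Fz4-/- sample of litter 2 fell just below the Fz4+/+ sample of litter 3. Slc25a32, the mitochondrial folate carrier, differed by 0.19 ± 0.22, Abcc3, an exporter of organic anions, by 0.21 ± 0.20 and Mmachc, of B12 processing, by 0.15 ± 0.14. The 4 genes below 0 were the B12 carrier gene Tcn2 at -0.01, the lysosomal B12 transporter gene Abcd4 at -0.04, the B12 receptor gene Cd320 at -0.04 and the exporter gene Abcc5 at -0.08. limma's adjusted p was 0.999988 for all of these, and 4 of 5 other tested Abcc5 probe sets and 3 of 4 other tested Tcn2 probe sets had the opposite sign.

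**Figure D3:**
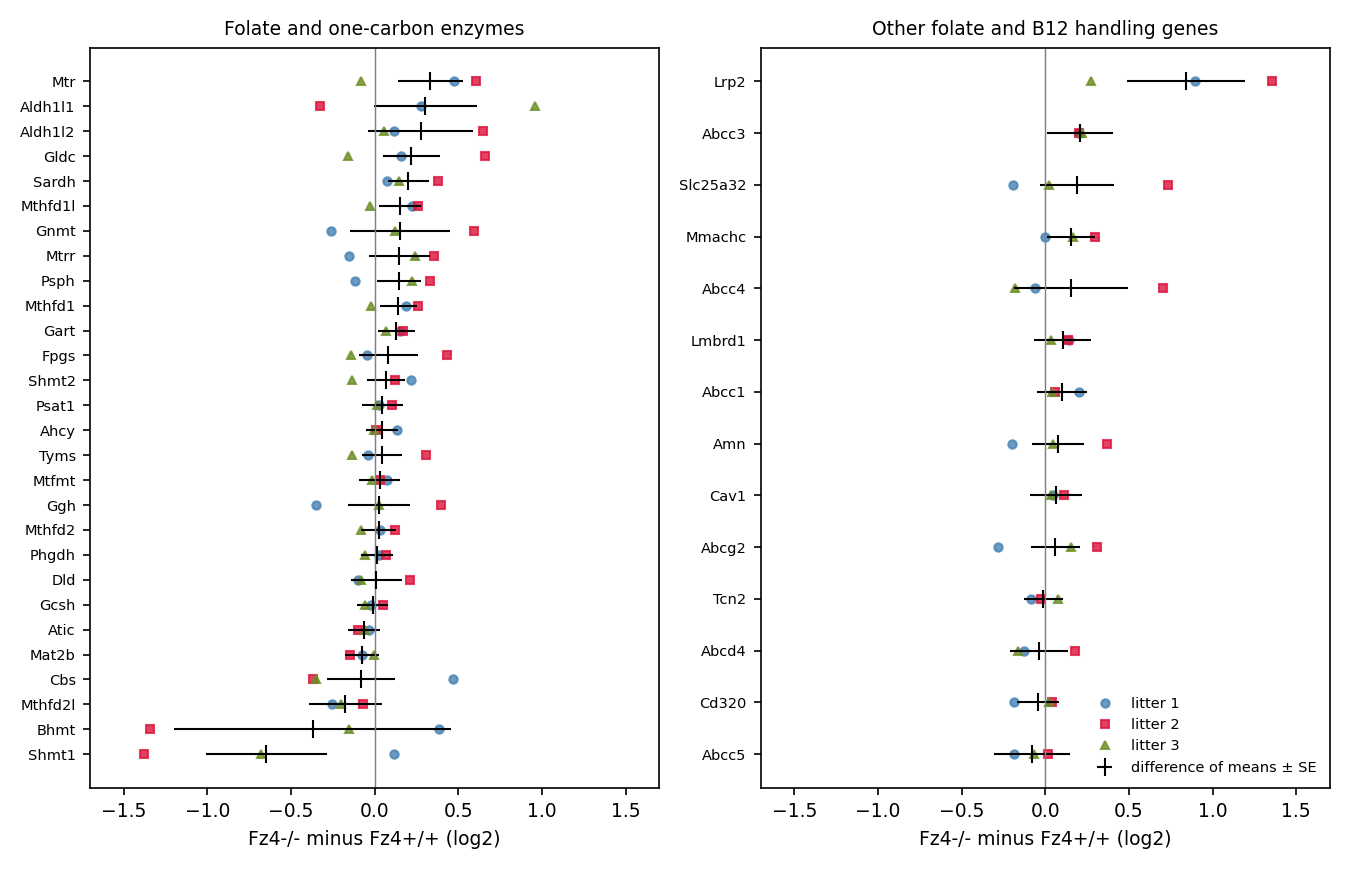
Difference in log2 signal, Fz4-/- minus Fz4+/+, for 28 folate and single-carbon enzymes (left) and 14 other genes of folate and B12 handling (right), 1 probe set per gene. Coloured points are litters and black bars the difference of means with its SE. Lrp2 at 0.84 and Shmt1 at -0.65 lie farthest from 0.

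Markers of the cells that are known to carry these receptors varied between the same samples. For proximal tubule and early nephron, 16 of 22 listed genes passed the filter and their mean log2 signal ran from 8.75 to 8.86 in Fz4-/- samples and from 8.37 to 8.75 in Fz4+/+ samples. Of these 15 were above 0, against 63.5% of measured genes, with a median difference of 0.14. This median ranged from 0.10 to 0.24 when arrays were dropped singly. Its extremes came from dropping litter 2 of Fz4-/- and litter 1 of Fz4+/+. Dropping litter 3 of Fz4+/+ gave 0.22, and dropping litter 2 of that genotype gave 0.12. The lowest mean of the list was that of the Fz4+/+ sample of litter 2, which was also the lowest for Folr1. That sample was the lowest of its genotype for 10 of the 16 genes, against 48.6% of measured genes. Without overlap, 2 of the 16 were higher and 0 lower, against 2.56% and 1.25% of measured genes. In all 3 litters 4 of the 16 were higher and 0 lower, against 15.5% and 7.26% of measured genes. Jag1, Lhx1, Bmper and Dab2, which the list holds as its brightest genes, differed by 0.11, 0.08, 0.27 and 0.01. Bmper was higher in every litter and without overlap, with a gap of 0.10, at limma's adjusted p of 0.999988. It was the 1 gene of the 16 with an unadjusted limma p under 0.05, against 239 of all 27022 tested probe sets. Of genes known from the proximal tubule, Slc5a2, a glucose transporter, differed by 0.34 and was higher in every litter and without overlap, with a gap of 0.0004. The others past the filter included Hnf4a, Aqp1 and Slc3a1, which differed by 0.89, 0.24 and 0.05 with litters of both directions, while Slc34a1, Fbp1, Slc22a6 and Cubn did not pass it. Lrp2, Cubn and Amn are also in the list of folate and B12 handling above.

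For ureteric epithelium, 19 of 24 genes passed the filter and the mean ran from 9.13 to 9.30 in Fz4-/- samples and from 8.75 to 9.17 in Fz4+/+ samples. The Fz4+/+ sample of litter 2 was again the lowest, and was the lowest of its genotype for 13 of the 19 genes, against 48.6% of measured genes. Of these genes 17 were above 0, against 63.5% of measured genes, with a median difference of 0.20, which was 0.10 without that sample. Krt7, Tfap2b and Cldn1 were higher without overlap, at 0.50, 0.20 and 0.77, each at limma's adjusted p of 0.999988, and 1 gene was lower. Cldn1 was the 1 gene of the 19 with an unadjusted limma p under 0.05, against 239 of all 27022 tested probe sets. Of all measured genes 2.56% were higher without overlap and 1.25% lower. In all 3 litters 10 of the 19 were higher and 1 lower, against 15.5% and 7.26% of measured genes. The brightest, Calb1, Krt18, Epcam and Cdh1, differed by 0.01, 0.23, 0.14 and 0.24. The 11 kidney markers stand mainly for the progenitors and stroma of the embryonic kidney. Of these 11, 5 were above 0 and 6 below, against 63.5% of measured genes above 0, with a median difference of -0.04. Cited1, a marker of nephron progenitors, and Ret were lower without overlap, at -0.33 and -0.18, at limma's adjusted p of 0.999988. Ret, the receptor gene of the ureteric tip, is also in the ureteric list. Cited1 and Ret were 2 of the 11 and 0 were higher without overlap, against 1.25% and 2.56% of measured genes. Cited1 was the 1 gene of the 11 with an unadjusted limma p under 0.05. The part of these cells in the Folr1 difference was not tested.

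For macrophages, 21 of 28 genes passed the filter, and 0 of these had an unadjusted limma p under 0.05. Their mean ran from 7.51 to 7.87 in Fz4-/- samples and from 7.46 to 8.13 in Fz4+/+ samples, so that the genotypes overlapped. Of these genes 9 were above 0 and 12 below, against 63.5% of measured genes above 0, with a median difference of -0.02. Leaving out 1 sample at a time moved this median between -0.16, without the Fz4-/- array of litter 3, and 0.13, without the Fz4+/+ array of that litter. Within litters 1, 2 and 3 the mean differed by 0.03, 0.05 and -0.26. In all 3 litters 3 of the 21 were lower, as Folr2 was, namely Adgre1 at -0.22, F13a1 at -0.57 and Ctss at -0.24, and 0 were higher, against 7.26% and 15.5% of measured genes. The brightest, Stab1, C1qb, Csf1r and Mrc1, differed by 0.01, -0.19, 0.19 and -0.02. Timd4, Cd163 and 5 other markers did not pass the filter. The part of macrophages in the Folr2 difference was not tested.

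Other tissues also differed between samples. Striated muscle genes, 10 of 10 past the filter, averaged 6.32 to 7.78 in Fz4-/- samples and 7.77 to 8.56 in Fz4+/+ samples. The highest was the Fz4+/+ array of litter 2 and the lowest the Fz4-/- array of litter 2. Within litters 1, 2 and 3 the muscle mean differed by -0.15, -2.24 and 0.01. All 10 genes were below 0, against 63.5% of measured genes above 0. Liver and yolk sac genes, 6 of 10 past the filter, averaged 6.29 to 7.64 in Fz4-/- and 6.57 to 8.18 in Fz4+/+. Adrenal and sympathetic genes, 4 of 10 past the filter, averaged 5.78 to 6.68 in Fz4-/- and 6.33 to 7.89 in Fz4+/+. Endothelial genes, 10 of 10, averaged 9.23 to 9.31 in Fz4-/- and 9.05 to 9.25 in Fz4+/+. Erythroid genes, 7 of 10, averaged 8.25 to 8.67 in Fz4-/- and 7.83 to 9.33 in Fz4+/+. As a measure of RNA degradation, the actin control probe sets at the 3' end exceeded those at the 5' end by 0.64 to 0.86 in Fz4-/- samples and by 0.76 to 0.90 in Fz4+/+ samples. Those of Gapdh did so by 0.75 to 0.86 in Fz4-/- samples and by 0.77 to 0.90 in Fz4+/+ samples. The highest value, 0.90, was that of the Fz4+/+ array of litter 2 for actin, and the Fz4+/+ arrays of litters 2 and 3 both gave 0.90 for Gapdh. The part of these in the members' values was not tested.

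**Figure D4:**
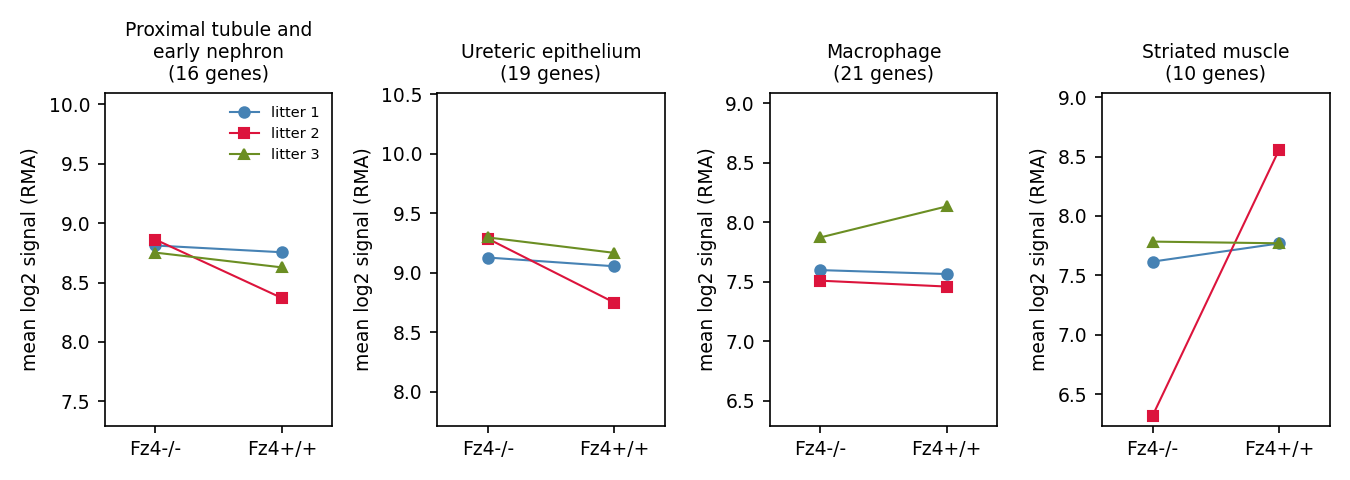
Mean log2 signal (RMA) of 4 lists of marker genes in each sample, with lines joining the samples of a litter. All axes span the same log2 range. The Fz4+/+ sample of litter 2 has the lowest mean of the nephron list at 8.37 and of the ureteric list at 8.75, and the highest of the muscle list at 8.56.

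The genes most like Folr1 across the 6 arrays were found by Pearson's correlation, which also carries the difference between genotypes that chose Folr1. Among 12534 other measured genes these were Zfp113, Trap1, Plcd1, Tmem19 and Slc16a7, with r from 0.981 to 0.987. All 5 were higher in Fz4-/- without overlap, by 0.06 to 0.38, and had their lowest Fz4+/+ value in litter 2. Among the members, the brightest Slc19a1 probe set ranked 144th by likeness to Folr1, with r of 0.910, and the brightest Slc46a1 set ranked 354th, with r of 0.865. Folr2 had r of -0.419 with Folr1. The genes most like Folr2 were Klhl26, Kcnq5, Sost, Appl1 and Suclg2, with r from 0.949 to 0.978 and differences of -0.30 to -0.06.

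Folr1 and Folr2 are next to each other on chromosome 7, which also holds Fzd4. Between Fzd4 and the pair RefSeq places 94 protein-coding genes, and 68 measured genes lie there. The differences of these 68 had a median of 0.00068 and a median absolute size of 0.09, against 0.08 over all measured genes. They ran from -0.57 for Sytl2 to 0.52 for Kcne3. Of the 68, 1 was higher without overlap and 1 lower, against 2.56% and 1.25% of all measured genes.

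Of the 10 measured genes on each side of the receptor pair, 20 in all, 0 were without overlap between the genotypes, against the 2.56% higher and 1.25% lower among all measured genes. The nearest on one side, Inppl1, Clpb and Pde2a, differed by 0.11, 0.16 and 0.10, and each was negative in litter 3. The nearest on the other side, Anapc15, Lamtor1 and Lrrc51, differed by 0.03, -0.05 and 0.17. Around Slc19a1 on chromosome 10 and Slc46a1 on chromosome 11, the 20 neighbours of each had median differences of 0.07 and 0.06. Of these, 1 beside Slc19a1 was lower without overlap and 0 beside Slc46a1 were without overlap.

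**Figure D5:**
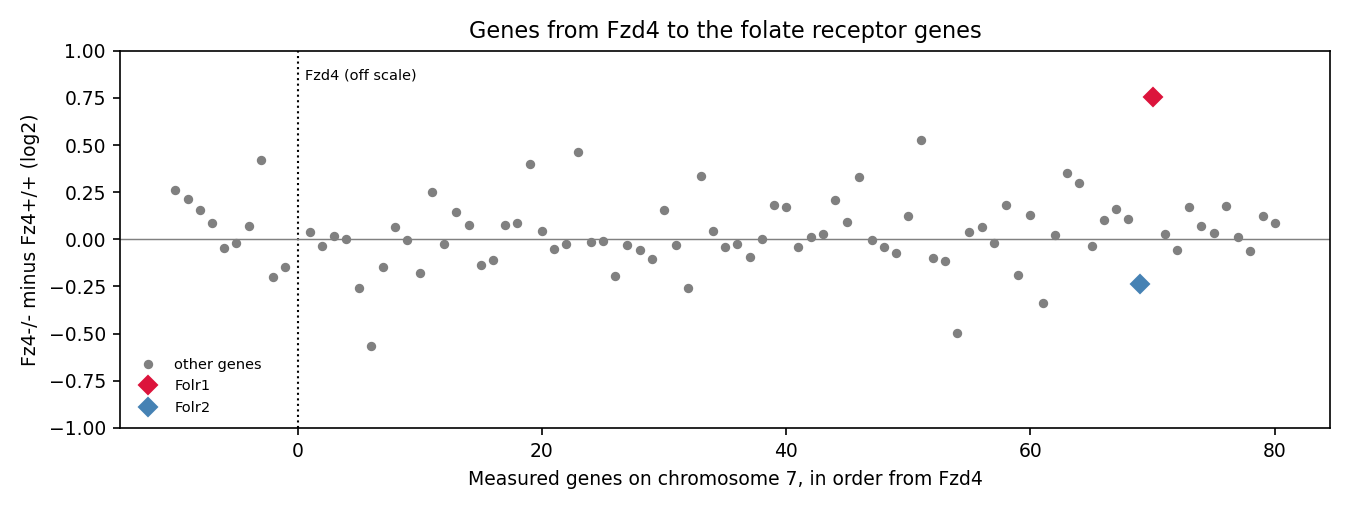
Difference in log2 signal, Fz4-/- minus Fz4+/+, of measured genes on chromosome 7 in their order from Fzd4, which lies off the scale. The 68 genes between Fzd4 and the receptor pair run from -0.57 to 0.52. Folr1 at 0.76 and Folr2 at -0.24 were chosen on this difference, so their place among the others is a description.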

How the data were processed

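Expression was measured in 6 arrays, 3 per genotype. The authors deposited log2 values per probe set, made with RMA per the submitters' processing notes, with no version given. The values were used as deposited, and 0 sample columns were left out. The scans and detection calls were not used here. Probe sets were named by the platform annotation, which gave 1 gene to 34958, several to 932 and none to 9211, and 34754 matched RefSeq (GRCm38.p6) by Entrez number. RefSeq gave only names and gene order.

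After 64 control probe sets were left out, those with a mean at or above the 40th percentile, 5.89, were tested with limma 3.58.1 in R 4.3.3 (lmFit, eBayes, two-sided, Benjamini-Hochberg over 27022 probe sets, threshold 0.05), with genotype as the sole term. The fit was tested on simulated data. A gene's brightest tested probe set stood for it. Differences are Fz4-/- minus Fz4+/+. Calls, counts and medians were recomputed with the litter as a block, quantile normalization, no filter, array weights, all probe sets of a gene averaged, and each sample and 2 of the litters left out.

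Samples with the same replicate number came from the same litter, per the labels, and are thus paired. Deviations from genotype means correlated by 0.577, 0.178 and 0.809 in litters 1, 2 and 3, while the Fz4-/- sample of litter 1 correlated by 0.609 with the Fz4+/+ sample of litter 2. The members and lists were chosen with earlier results of these data known. Named genes were the members, up to 4 per direction of each folate list by unadjusted p, the 5 most like Folr1 and Folr2, the 3 nearest measured neighbours per side of the receptor pair and up to 4 of the brightest per marker list of the receptors' cell types. Sardh was also singled out by its lack of overlap after its values were seen. So were tested markers without overlap in the nephron, ureteric and kidney lists, and macrophage markers of 1 direction in all litters. Some markers of the proximal tubule or below the filter were also named after their values were seen.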

Additional observations from a re-analysis of the deposited data

How the results depend on the processing

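With the litter as a replicate block the differences of the means were the same by construction, limma called 0 probe sets, and the SE of Folr1 was 0.18 and that of Folr2 0.10. In that fit 841 probe sets had an unadjusted p under 0.05, against 239 with genotype as the sole term. Array weights called 2 probe sets, both of Fzd4, and the other 11 settings called 0. Each of the 7 member probe sets kept its direction in all 11 settings run for it. Nothing is read from this, because the genes were picked on this contrast. For probe sets without overlap, leaving out samples cannot change the direction, and the litter block leaves every difference unchanged. With 1 sample left out, Folr1 ranged from 0.51 to 0.88 and Folr2 from -0.31 to -0.18. The median of the folate enzymes ranged from 0.02 to 0.11, its extremes without the Fz4+/+ samples of litters 2 and 3, and was 0.07 when all probe sets of a gene were averaged. The median of the other folate and B12 genes changed sign, ranging from -0.0222 to 0.172 with 1 sample left out and reaching -0.0353 without litter 2, an alternative added once the values were known. That of the macrophage markers ranged from -0.157 to 0.132, its extremes with the litter 3 samples of Fz4-/- and Fz4+/+ left out. The causes were not tested. Probe sets without overlap numbered 983, or 2057 without the filter and 1803 to 7017 with 1 sample left out. Those of 1 direction in every litter numbered 5812, or 9959 without the filter and 12273 to 13691 with 1 sample left out, when only 2 litters remain. The number of arrays limits the precision.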
